A study of Mus musculus with 8 samples.

Results

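Fc receptors bind the constant part of antibodies and pass that contact on to the cell. The set described here holds 7 genes, chosen by name: the IgG receptors *Fcgr1*, *Fcgr2b*, *Fcgr3* and *Fcgr4*, the signalling chain *Fcer1g*, the Fc receptor-like scavenger receptor gene *Fcrls*, and *Fcgrt*, which encodes the heavy chain of the neonatal Fc receptor FcRn. All 7 of the 7 symbols were found among the 55573 genes listed in the count table, and all 7 passed the filter on low counts. RNA came from microglia that had been sorted from the brains of 4 mutant mice (Smad2/3 fl/fl;Cx3cr1Cre) and 4 control littermates at postnatal day 60, with 1 library per mouse. Mutants carried floxed alleles of *Smad2* and *Smad3*, the transcription factors of canonical TGFβ signalling, and a Cre recombinase expressed from the *Cx3cr1* locus, which is active in microglia and in related macrophages. Controls are called wild type in the labels, but per the Methods Cre and 1 floxed allele were usual in controls. Libraries are named here mutant 1 to 4 and control 1 to 4 after the numbers in the labels, and values by library are given in that order.

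The activating IgG receptors of the mouse are FcγRI (*Fcgr1*, high affinity), FcγRIII (*Fcgr3*, low affinity) and FcγRIV (*Fcgr4*, intermediate affinity). Each needs the γ chain encoded by *Fcer1g*, whose activation motif (ITAM) is phosphorylated by Src family kinases and then recruits the kinase Syk, a step that leads to phagocytosis of antibody-coated targets. FcγRIIB (*Fcgr2b*) is the single inhibitory IgG receptor, and its inhibitory motif recruits the lipid phosphatase SHIP1 (*Inpp5d*). FcRn pairs with β2-microglobulin (*B2m*) and returns IgG and albumin from acidic endosomes instead of letting them be degraded. *Fcrls* is widely used as a surface marker of resident microglia of the mouse brain, and an antibody to FCRLS served in the study's sort of microglia from other mice, whereas no such gate is stated for the *Smad2/3* mutants.

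The 4 genes whose level separated the groups in the test below were *Fcrls*, *Fcgr1*, *Fcgr4* and *Fcgrt*, and their start regions are shown for that reason. Each line is the 300 bases from 250 before to 50 after the annotated start, read 5′ to 3′ on the strand of the gene, from RefSeq on GRCm38.p6. Capitals mark GAGGAA, a core of sites for the myeloid factor PU.1, and CAGAC, a motif bound by SMAD proteins, on either strand (so also TTCCTC and GTCTG). Neither search looked at anything beyond these letters, and the marked matches did not overlap each other.
Fcrls, chr3:87263475-87263774, minus strand: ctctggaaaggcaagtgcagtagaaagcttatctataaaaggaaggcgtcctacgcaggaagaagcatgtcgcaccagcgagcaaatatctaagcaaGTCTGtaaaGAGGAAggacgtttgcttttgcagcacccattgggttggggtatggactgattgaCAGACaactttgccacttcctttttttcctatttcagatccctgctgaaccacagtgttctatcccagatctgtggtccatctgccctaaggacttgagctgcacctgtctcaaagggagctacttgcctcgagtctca
Fcgr1, chr3:96293920-96294219, minus strand: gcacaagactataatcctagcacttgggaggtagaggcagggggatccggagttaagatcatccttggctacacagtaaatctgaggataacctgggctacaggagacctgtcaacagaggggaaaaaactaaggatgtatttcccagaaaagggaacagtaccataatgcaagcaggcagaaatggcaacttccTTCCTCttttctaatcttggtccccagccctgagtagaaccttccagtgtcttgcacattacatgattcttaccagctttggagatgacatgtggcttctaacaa
Fcgr4, chr1:171018676-171018975, plus strand: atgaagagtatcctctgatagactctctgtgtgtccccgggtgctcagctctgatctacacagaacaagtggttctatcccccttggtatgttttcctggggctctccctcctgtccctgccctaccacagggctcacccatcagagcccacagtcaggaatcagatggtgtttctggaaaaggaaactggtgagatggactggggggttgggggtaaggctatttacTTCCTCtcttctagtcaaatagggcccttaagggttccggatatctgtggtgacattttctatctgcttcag
Fcgrt, chr7:45103773-45104072, minus strand: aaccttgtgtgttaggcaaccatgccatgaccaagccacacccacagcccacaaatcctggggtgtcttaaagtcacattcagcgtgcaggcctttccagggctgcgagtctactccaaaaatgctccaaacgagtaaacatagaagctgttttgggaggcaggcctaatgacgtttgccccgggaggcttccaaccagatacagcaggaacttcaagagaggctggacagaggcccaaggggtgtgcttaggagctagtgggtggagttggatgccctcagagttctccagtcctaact
All 7 genes had an entry. *Fcrls* held 1 match to GAGGAA and 2 matches to CAGAC in its window. By GENCODE, the source of the gene coordinates given below, *Fcrls* starts at 87263738, inside this window. These matches lie downstream of that start. *Fcgr1* and *Fcgr4* each held 1 GAGGAA and no CAGAC, and the *Fcgrt* window held neither run of letters. Of the 3 genes whose windows are not printed, *Fcgr2b* held 3 matches to CAGAC, *Fcer1g* held 1, and both *Fcgr3* entries held 1 GAGGAA and 2 CAGAC. The GENCODE starts of *Fcgr2b* (170976547) and *Fcgr3* (171064935) lie outside their windows, so these matches do not describe the starts used for coordinates below. Among all 32851 RefSeq start regions of this length, 28.3% held GAGGAA and 49.6% held CAGAC, so both are common. A match describes letters only, and binding was not measured here.

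Libraries held 35639502 to 41946479 reads counted on genes. Levels are CPM, the count of a gene relative to 1000000 counts of its library, scaled by edgeR's TMM factors, and a gene was called when its adjusted p from edgeR's quasi-likelihood test, over all 20153 tested genes, was under 0.05. Of the targeted genes, *Smad3* fell by 1.33 on the log2 scale (SE 0.36, adjusted p = 0.0429), a call lost in 7 of the 8 fits that left out a mouse, and *Smad2* was not called (log2 fold change -0.34, adjusted p = 0.340), and counts over whole genes also include exons that Cre leaves in place, so the targeted genes are a weak check of the labels. Sex-linked RNA split exactly by group: *Xist* was at 99.3 to 183 CPM in controls and at no more than 0.561 CPM in mutants, while the Y-linked *Ddx3y* ranged from 9.73 to 59.7 CPM over mutants and was at no more than 0.224 CPM in controls. Genotype and sex therefore cannot be told apart in any result here. All 7 Fc genes lie on autosomes, which does not lift this limit. Of 12 microglia markers, 10 were lower in mutants and none was higher. These include *P2ry12*, at 4184 to 5972 CPM in controls and 139 to 203 CPM in mutants. Of 7 markers of border-associated macrophages, which occupy the brain's surfaces and vessels, 5 were higher, such as *Mrc1* at 7.80 to 16.8 CPM in controls and 243 to 391 CPM in mutants. Beside these counts of markers, edgeR called 7.97% of all tested genes lower and 4.36% higher. In such bulk RNA, a change in the share of cells of one type and a change in RNA per cell cannot be told apart.

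Of the 7 Fc receptor and Fc-like genes, 2 were higher in mutants (*Fcgr4* and *Fcgrt*), 2 were lower (*Fcrls* and *Fcgr1*) and 3 did not pass the test (*Fcgr2b*, *Fcgr3* and *Fcer1g*). Over all tested genes, edgeR called 12.3% in either direction, 4.36% higher and 7.97% lower. The same 4 called genes were the ones whose CPM did not overlap between the groups, a property of 22.1% of all tested genes (9.04% higher and 13% lower in mutants). The median log2 fold change of the 7 was 0.25, against 0.01 over all tested genes, and the genes moved in both directions. DESeq2 called 20.7% of its tested genes (9.11% higher, 11.6% lower) and also called 2 of the 7 higher and 2 lower.

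**Figure D1:**
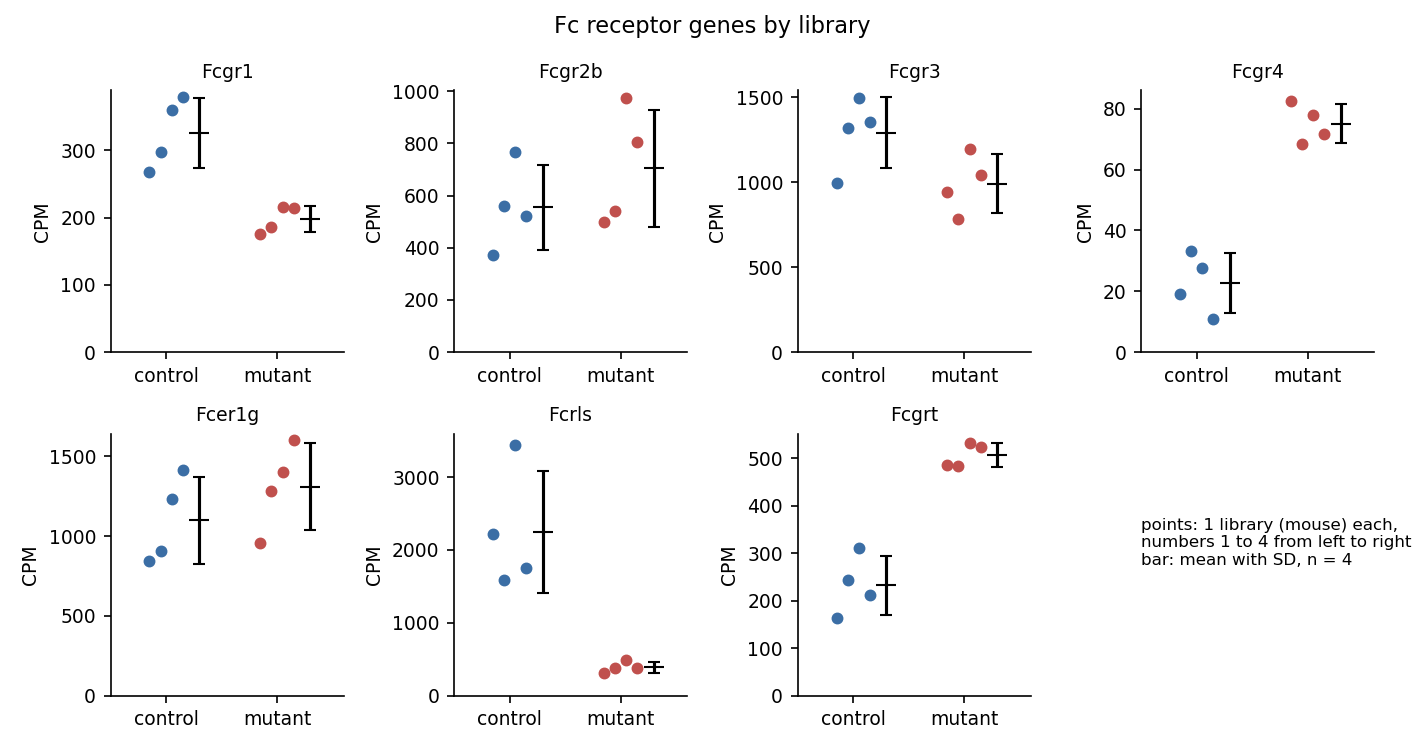
CPM (y axis, from 0) of each of the 7 genes in the 4 control (blue) and 4 mutant (red) libraries, each point being 1 library and each bar the mean with its SD (n = 4). The groups are apart for *Fcgr1*, *Fcgr4*, *Fcrls* and *Fcgrt* and overlap for *Fcgr2b*, *Fcgr3* and *Fcer1g*.

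Among the activating receptors, *Fcgr1* and *Fcgr4* changed in opposite directions. *Fcgr1* (ENSMUSG00000015947, chr3:96282909-96293969 on GRCm38), whose receptor binds monomeric IgG, was at 175, 187, 215 and 214 CPM in mutants 1 to 4 and at 267, 298, 360 and 378 CPM in controls 1 to 4. The highest mutant stood below the lowest control. It fell by 0.72 on the log2 scale (SE 0.16, edgeR adjusted p = 0.0195), a level 1.65-fold lower. This call rested on single mice: the adjusted p was 0.0614 without control 4 and 0.0598 without mutant 2, with log2 fold changes of -0.59 and -0.69.

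*Fcgr4* (ENSMUSG00000059089, chr1:171018920-171029761), whose receptor favours complexed IgG2a and IgG2b and which is known from monocytes, macrophages and neutrophils, was at 82.4, 68.3, 77.9 and 71.6 CPM in mutants and at 19.1, 33.3, 27.6 and 10.96 CPM in controls. Mutants lay close together (coefficient of variation 8.45%) and controls were spread over a wider relative range (43.0%). All mutants were above all controls, and the level rose by 1.72 on the log2 scale (SE 0.31, adjusted p = 0.0074 by edgeR), or 3.30-fold. Of 9 neutrophil markers 1, *Camp*, was lower in mutants, none was higher and 8 were not called. Over all tested genes, edgeR called 7.97% lower and 4.36% higher. The summed level of the 9 was 534 to 2365 CPM in controls and 290 to 855 CPM in mutants. None of 7 monocyte markers was called, with sums of 396 to 939 CPM in controls and 467 to 1045 CPM in mutants. The summed border macrophage markers were at 52.8 to 98.98 CPM in controls and 1630 to 2534 CPM in mutants. The part of any of these cells in the *Fcgr4* result was not tested.

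*Fcgr3* (ENSMUSG00000059498, chr1:171051174-171064935), the low-affinity activating receptor, was at 941, 784, 1199 and 1040 CPM in mutants and at 997, 1321, 1497 and 1357 CPM in controls. Control 1 lay within the mutant range. The log2 fold change was -0.38 (SE 0.19, 95% interval -0.81 to 0.04, edgeR adjusted p = 0.217), so a fall of that size is not separated from the spread between mice. NK cells also carry this receptor. Of 8 NK and T cell markers 3 were higher in mutants (*Nkg7*, *Cd3e* and *Trbc2*), beside 4.36% of all tested genes. *Cd3e* and *Trbc2* are T cell genes. *Nkg7*, not assigned to either cell type here, had means of 50.7 CPM in mutants and 14.3 CPM in controls (log2 fold change 1.83, SE 0.40). The NK cell genes *Ncr1* and *Klrb1c* were not called (edgeR adjusted p = 0.260 and 0.835). Their log2 fold changes of 2.16 (SE 1.16) and 0.44 (SE 1.05) are too imprecise to show whether NK cell RNA rose. The sum of the 8 was 14.7 to 58.5 CPM in controls and 61.8 to 178 CPM in mutants, without overlap, and the part of these cells in the *Fcgr3* values was not tested.

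The inhibitory receptor gene *Fcgr2b* (ENSMUSG00000026656, chr1:170958617-170976547) was at 499, 542, 972 and 804 CPM in mutants and at 373, 560, 768 and 521 CPM in controls. Mutant 3 and control 3 were the highest of their groups, and the groups overlapped. Its log2 fold change was 0.34 (SE 0.28, 95% interval -0.29 to 0.98, edgeR adjusted p = 0.471). *Fcgr2b* and *Fcgr3* have related sequences: 9.58% of the 50-base words of *Fcgr3* transcripts also occur in *Fcgr2b*, so a minority of reads could have been shared between the pair or left out in counting. Of the words of *Fcgr2b*, 6.95% also occur in transcripts of 146 other genes, and 2.92% occur in *Fcgr3*. A further 155 exonic bases of *Fcgr2b*, or 2.68% of its exonic length, lie opposite a gene on the other strand (*Gm38204*), and the libraries were unstranded.

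*Fcer1g* (ENSMUSG00000058715, chr1:171229572-171234365), the ITAM-bearing γ chain that the activating receptors share, was at 955, 1280, 1401 and 1601 CPM in mutants and at 842, 906, 1233 and 1415 CPM in controls. The ranges overlapped over most of their length. Its log2 fold change was 0.25 (SE 0.23, 95% interval -0.26 to 0.76, adjusted p = 0.517, edgeR).

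*Fcrls* (ENSMUSG00000015852, chr3:87250758-87263738) showed the largest change of the 7. It was at 316, 376, 492 and 377 CPM in mutants and at 2212, 1582, 3434 and 1745 CPM in controls. Every mutant was below every control, and in each group library 3 was the highest. The level fell by 2.52 on the log2 scale (SE 0.28, adjusted p = 0.0006 by edgeR), or 5.75-fold, and yet the lowest mutant library still held 12165 counts of it, so that its RNA was reduced and far from absent. The call was kept in each of the 16 alternative fits, with log2 fold changes from -2.66 to -2.24.

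*Fcgrt* (ENSMUSG00000003420, chr7:45092990-45103851), which encodes the FcRn heavy chain, was at 486, 484, 533 and 525 CPM in mutants and at 163, 244, 311 and 212 CPM in controls. The 4 mutants lay within a coefficient of variation of 5.06%, and all were above the highest control, number 3. It rose by 1.12 on the log2 scale (SE 0.20, edgeR adjusted p = 0.0070), or 2.18-fold. *B2m*, the light chain of FcRn and of class I MHC, was at 1941, 2429, 3078 and 2621 CPM in mutants and at 1380, 1622, 1833 and 2393 CPM in controls. Control 4 was inside the mutant range, and *B2m* was not called (log2 fold change 0.48, SE 0.22, adjusted p = 0.182, edgeR).

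**Figure D2:**
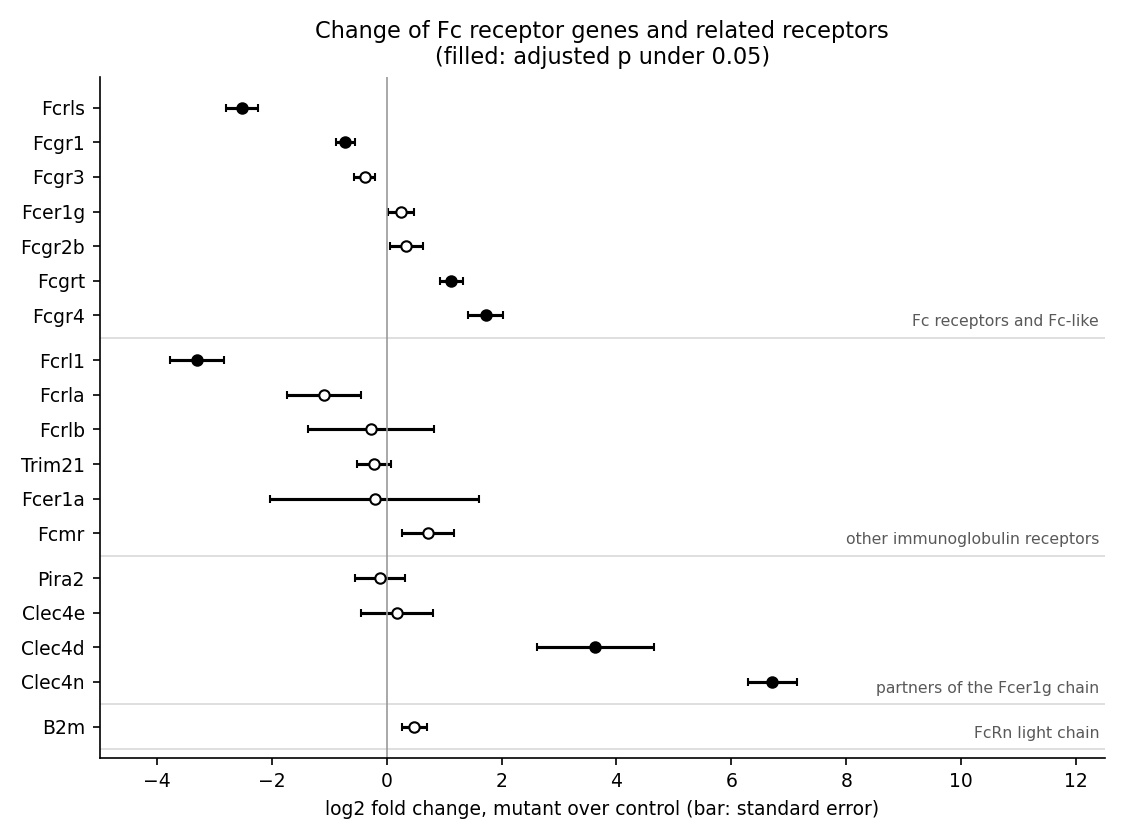
Log2 fold change of mutants over controls (x axis; bar, standard error; filled, edgeR adjusted p under 0.05) for the 7 genes, the tested genes for other receptors of immunoglobulin and Fc receptor-like proteins, those for other receptors that use the γ chain, and *B2m*. *Fcrls* at -2.52 and *Fcgr4* at 1.72 are the ends of the 7, and *Clec4n* at 6.71 lies far beyond them.

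To compare levels between genes, CPM was divided by the exonic length in kilobases (CPM per kb). In controls the order was *Fcer1g* (mean 1258 CPM per kb), *Fcrls* (961), *Fcgr3* (745), *Fcgr1* (126), *Fcgrt* (111), *Fcgr2b* (96.0) and *Fcgr4* (18.1). Neighbours in that order overlapped in their ranges except at the steps from *Fcgr3* down to *Fcgr1* and from *Fcgr2b* down to *Fcgr4*. In mutants the order was *Fcer1g* (1498 CPM per kb), *Fcgr3* (571), *Fcgrt* (241), *Fcrls* (167), *Fcgr2b* (122), *Fcgr1* (76.4) and *Fcgr4* (59.7), and only the ranges of *Fcrls* and *Fcgr2b* overlapped. In controls the order of these means was not that of every library. *Fcer1g* was above *Fcrls* in 3 of 4 controls, *Fcrls* above *Fcgr3* in 2 of 4 and *Fcgr1* above *Fcgrt* in 2 of 4. In mutants, each gene was above the next in all 4 libraries. *Fcgr4* was the lowest of the 7 in both groups, and the gap to *Fcgr1* was much narrower in mutants.

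Whether receptors moved relative to each other was examined through 5 ratios of counts within a library, which do not depend on how libraries are scaled. An exact permutation test, two-sided, over the 70 ways to split the 8 libraries into 4 and 4 was used for each, and its smallest p is 0.0286. The *Fcgr1* to *Fcgr2b* ratio was 0.351, 0.344, 0.221 and 0.266 in mutants and 0.717, 0.531, 0.469 and 0.726 in controls. All mutants lay below all controls, with a log2 difference of -1.05 (exact permutation p = 0.0286, 0.0357 adjusted over the 5 ratios). For *Fcgr3* to *Fcgr2b* the ratio was 1.88, 1.45, 1.23 and 1.29 in mutants and 2.67, 2.36, 1.95 and 2.60 in controls, again without overlap although control 3 and mutant 1 were close. The log2 difference was -0.72 (exact permutation p = 0.0286, adjusted 0.0357), in a pair of genes neither of which was called alone.

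*Fcgr4* to *Fcgr2b* went the other way, at 0.165, 0.126, 0.0802 and 0.0890 in mutants and 0.0514, 0.0596, 0.0359 and 0.0211 in controls. Its log2 difference was 1.5 (exact permutation p = 0.0286, adjusted 0.0357). The activating receptors therefore did not shift as a group against the inhibitory one: *Fcgr1* and *Fcgr3* fell relative to it and *Fcgr4* rose. The 3 ratios share *Fcgr2b*, with the limit of its shared sequence, and are not independent of each other.

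The ratio of *Fcer1g* to the summed *Fcgr1*, *Fcgr3* and *Fcgr4* counts was 0.796, 1.23, 0.939 and 1.21 in mutants and 0.656, 0.549, 0.654 and 0.811 in controls. Control 4 stood above mutant 1, and the log2 difference of 0.64 did not pass (exact permutation p = 0.0571, adjusted 0.0571). *Fcgrt* to *B2m* was 0.250, 0.199, 0.173 and 0.200 in mutants and 0.118, 0.151, 0.170 and 0.0885 in controls. Mutant 3 and control 3 nearly met, and the log2 difference was 0.67 (exact permutation p = 0.0286, adjusted 0.0357). With a library left out, the smallest possible p is 0.0571, and the log2 differences of the 5 ratios all kept their sign.

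**Figure D3:**
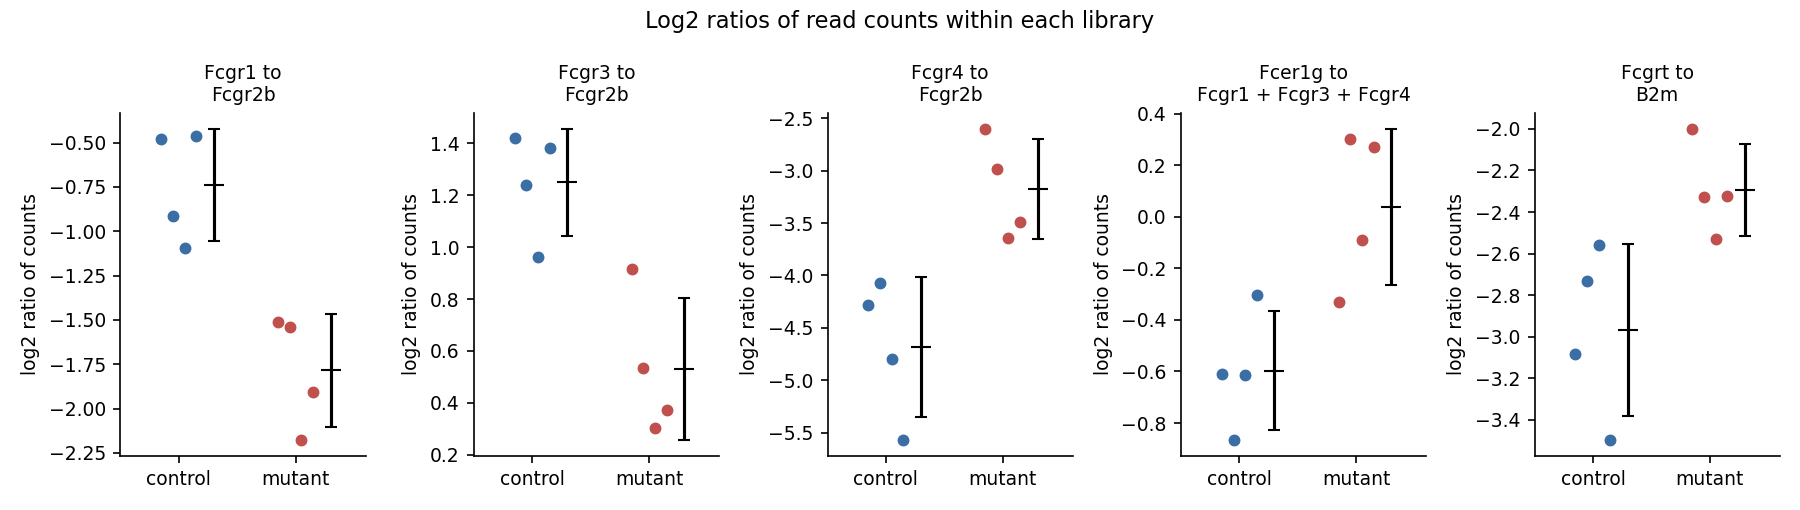
Log2 ratio of read counts within a library (y axis, its own scale in each panel) for the 5 ratios, in 4 control (blue) and 4 mutant (red) libraries, with mean and SD (n = 4). The groups are apart in all panels but that of *Fcer1g* to its receptor chains, where control 4 lies above mutant 1.

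Of 13 listed genes for other immunoglobulin receptors and Fc receptor-like proteins, 6 passed the filter, 1 fell and none rose. Over all tested genes, edgeR called 7.97% lower and 4.36% higher. *Fcrl1*, a receptor-like gene better known from B cells, was at 5.76, 7.23, 3.87 and 2.45 CPM in mutants and at 38.9, 22.8, 83.7 and 45.7 CPM in controls. All mutants were lower than all controls (log2 fold change -3.30, SE 0.47, edgeR adjusted p = 0.0023). *Fcrl1* lies on chromosome 3 at chr3:87376387-87402934, in the same stretch of the chromosome as *Fcrls*, and like *Fcrls* it fell. Of 14 immunoglobulin and B cell genes, 9 were tested and 1 fell, *Ighm*, named here after its values were seen: its mutant range was 32.2 to 56.2 CPM and its control range 410 to 700 CPM (log2 fold change -3.61, SE 0.27). The defining B cell genes *Cd79a*, *Cd79b* and *Ms4a1* were not called. *Cd79b* ranged from 26.6 to 49.4 CPM over mutants and from 29.0 to 46.6 CPM over controls. The summed level of the 14 was 517 to 1186 CPM in controls and 104 to 286 CPM in mutants, most of it *Ighm* in controls 3 and 4, and its part in the *Fcrl1* result was not tested.

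The remaining 5 tested genes of that list were not called. The IgM receptor gene *Fcmr* was at a mean of 4.70 ± 2.35 CPM (SD, n = 4) in mutants and 2.86 ± 1.10 CPM in controls, and *Fcrla* at 1.32 ± 1.03 CPM against 2.83 ± 1.15 CPM. *Trim21*, a cytosolic antibody receptor and ubiquitin ligase, had means of 17.0 ± 5.03 CPM (mutants) and 19.8 ± 6.62 CPM (controls). *Fcrlb* and the IgE receptor gene *Fcer1a* had means under 2 CPM in both groups, too little to show a change. *Ms4a2*, *Fcer2a*, *Fcamr*, *Pigr*, *Fcrl5*, *Fcrl6* and *Fcgbp* did not pass the filter.

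The γ chain is also used by receptors that do not bind antibodies. Of 6 such genes in the table, 4 were tested and 2 rose, both C-type lectin receptors for microbial glycans and lipids encoded side by side on chromosome 6. Of all tested genes, edgeR called 4.36% higher and 7.97% lower. *Clec4n* (Dectin-2) was at 228, 190, 312 and 408 CPM in mutants and at 4.44, 2.76, 1.84 and 1.80 CPM in controls. Its level rose by 6.71 on the log2 scale (SE 0.43, adjusted p = 4.8e-05, edgeR), more than any of the 7 Fc genes. *Clec4d* was at 6.17, 6.28, 11.05 and 13.2 CPM in mutants and at 0.439, 2.03, 0.475 and 0 CPM in controls, and its log2 fold change of 3.63 (SE 1.02, edgeR adjusted p = 0.0494) lost the call in 6 of the 8 fits without a mouse. *Clec4e* (Mincle) had means of 7.48 ± 4.54 CPM (mutants) and 6.59 ± 5.34 CPM (controls), and *Pira2* at 2.98 ± 0.511 CPM against 3.22 ± 1.61 CPM. Neither was called, and *Oscar* and *Gp6* were not tested. Thus *Clec4n* rose while the chain it uses, *Fcer1g*, did not pass the test.

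Below the receptors, the activating cascade was mostly lower. Of its 26 genes 14 fell, 1 rose and 11 were not called, with a median log2 fold change of -1.05 against 0.01 over all tested genes, of which edgeR called 7.97% lower and 4.36% higher. The kinase gene *Lyn*, which phosphorylates the ITAM and is named with *Syk* for its place at the top of the cascade, was at 230, 202, 319 and 218 CPM in mutants and at 467, 534, 710 and 539 CPM in controls (log2 fold change -1.22, SE 0.20, edgeR adjusted p = 0.0047). *Syk* itself was at 73.2, 81.0, 117 and 63.8 CPM in mutants and at 92.7, 134, 191 and 116 CPM in controls, with overlap, and was not called (log2 fold change -0.67, SE 0.26, edgeR adjusted p = 0.131). *Plcg1*, a phospholipase C that releases calcium signals, fell most. Its mean was 3.99 ± 0.985 CPM (SD, n = 4) in mutants against 34.1 ± 5.22 CPM in controls (log2 fold change -3.09).

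The fall was also clear for *Pik3r5*, a regulatory subunit of PI3-kinase γ, at 143 ± 47.6 CPM in controls and 25.5 ± 5.71 CPM in mutants (log2 fold change -2.49). *Blnk*, an adaptor for Syk, was at 362 ± 107 CPM in controls and 93.2 ± 26.6 CPM in mutants (log2 fold change -1.96). Reads on the opposite strand cannot be told apart in these genes: *Lyn* shares 6.09% of its exonic length with *Gm26857*, and *Plcg1* shares 4.82% with *Zhx3* and 3.16% with *Gm27206*. The single gene that rose was *Vav3*, a guanine nucleotide exchange factor, at 2.88 ± 1.52 CPM in controls and 20.8 ± 6.88 CPM in mutants (log2 fold change 2.85). Its relatives were lower or not called: *Vav1* fell by 1.72 on the log2 scale and *Vav2* was at a log2 fold change of -1.05 (adjusted p = 0.057, edgeR).

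Among 11 inhibitory genes 4 fell, 1 rose and 6 were not called (median log2 fold change -0.29), beside the same 7.97% lower and 4.36% higher over all tested genes. *Inpp5d*, which encodes SHIP1, the phosphatase that FcγRIIB recruits, was at 146, 111, 169 and 112 CPM in mutants and at 394, 652, 639 and 420 CPM in controls. Mutants were all lower (log2 fold change -1.97, SE 0.24, edgeR adjusted p = 0.0010), while *Fcgr2b* itself was not called. *Pag1*, a membrane anchor for the kinase Csk, was at 125 ± 40.2 CPM in controls and 42.7 ± 6.49 CPM in mutants. *Ptpn6*, which encodes the phosphatase SHP-1, was at 400 ± 74.9 CPM in controls and 219 ± 32.1 CPM in mutants. It shares 6.96% of its exonic length with *Gm20531* on the opposite strand. *Dok2*, an adaptor that dampens Ras signalling, rose by 2.08 on the log2 scale, from 7.07 ± 2.12 CPM to 29.9 ± 13.8 CPM, with mutant 1 far above the others.

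Of 24 genes of the actin machinery that closes a phagocytic cup, 6 fell, none rose and 18 were not called (median log2 fold change -0.33), against 7.97% lower and 4.36% higher over all tested genes. *Elmo1*, which acts with DOCK proteins to activate Rac, was at 362 ± 74.5 CPM in controls and 94.0 ± 40.8 CPM in mutants (log2 fold change -1.95). *Nckap1l*, a subunit of the WAVE complex of blood cells, was at 399 ± 105 CPM in controls and 125 ± 23.2 CPM in mutants (log2 fold change -1.67). *Coro1a*, an actin-binding coronin, was at 1032 ± 204 CPM in controls and 375 ± 29.5 CPM in mutants (log2 fold change -1.46). All 3 were without overlap of CPM between groups, as were 13% of all tested genes with mutants lower. These 3 were picked as the largest called falls of the list, so their separation adds nothing to the calls. On the opposite strand, *Elmo1* shares 3.20% of its exonic length with *Gm32036*, and *Coro1a* shares 0.934% with *Bola2*.

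**Figure D4:**
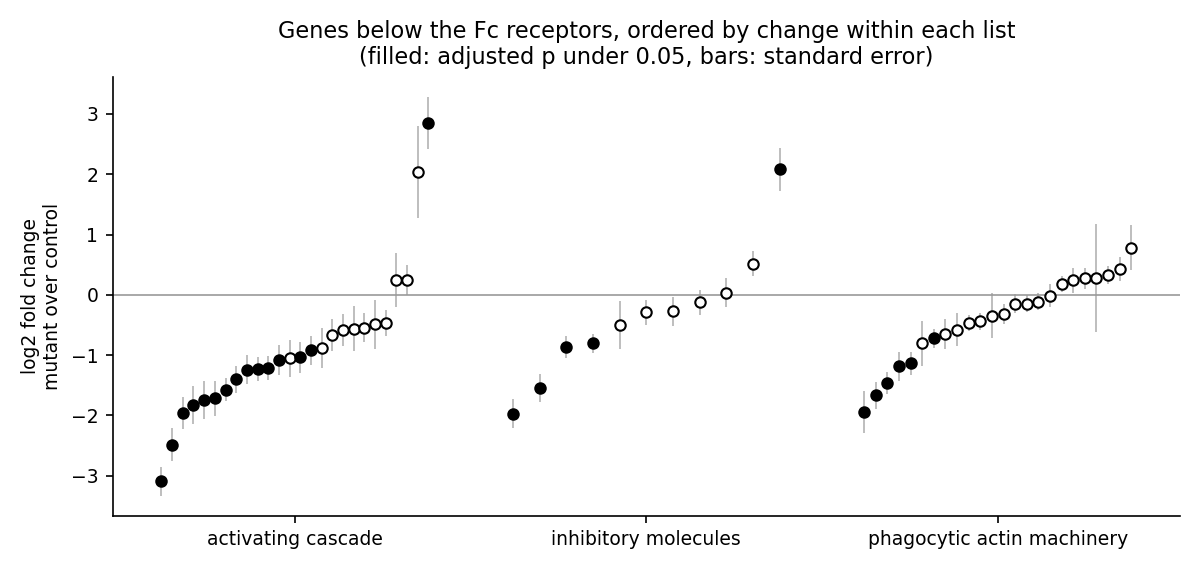
Log2 fold change of mutants over controls (y axis; bars, standard error; filled, edgeR adjusted p under 0.05) for the 26 activating, 11 inhibitory and 24 actin genes, each list in order of its values. The activating list has 14 filled points below 0 and 1 above, the inhibitory list 4 and 1, and the actin list 6 and none.

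*Fcgr2b*, *Fcgr4*, *Fcgr3* and *Fcer1g* lie together on chromosome 1 in that order, and of these only *Fcgr4* was called. Around all 7 genes, 87 other genes start within 100 kb, 45 of them were tested, none rose by edgeR and 1 fell, where edgeR called 12.3% of all tested genes in either direction. DESeq2 called 8 neighbours higher and 3 lower, and over all its tested genes 9.11% higher and 11.6% lower. How many of the 87 it tested was not counted, so no share of neighbours can be set beside those percentages. The gene that fell by edgeR was *B4galt3*, a galactosyltransferase that starts 36.0 kb upstream of *Fcer1g* (log2 fold change -1.64, SE 0.31, edgeR adjusted p = 0.0094). Near *Fcrls* only 2 genes were tested, *Kirrel* at a log2 fold change of -0.19 and *Gm10705* at 0.00. The 10 tested genes near *Fcgr1*, several of them histone genes, all had log2 fold changes above 0 where *Fcgr1* fell, from 0.28 for *Hist2h2be* to 3.45 for *Gm42743*, and none was called.

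**Figure D5:**
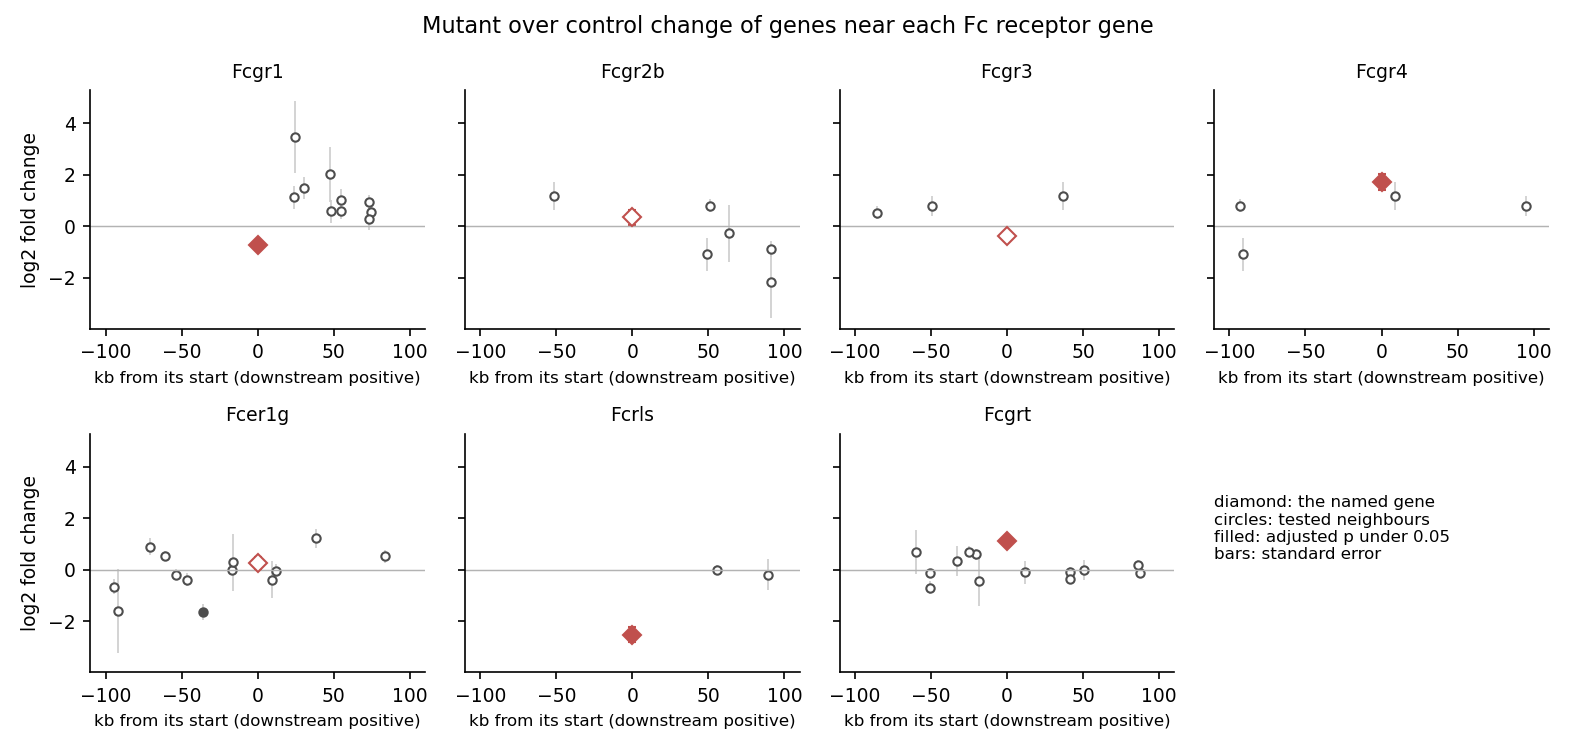
Log2 fold change (y axis; bars, standard error; filled, edgeR adjusted p under 0.05) of each of the 7 genes (red diamond) and of the tested genes that start within 100 kb (grey circles), by distance in kb from its start, positive downstream. *B4galt3*, near *Fcer1g*, is the only filled circle.

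The tested genes most like each of the 7 over the 8 libraries were found by the root mean square difference (RMS) of mean-centred log2 CPM, among genes whose mean log2 CPM reached 3. *Fcgr1* was closest to *Ctsz*, a lysosomal cathepsin (RMS 0.0795), and to *Itm2b* (0.0907). *Fcgr3* was closest to *Gdi2* (0.0641) and *Ints5* (0.0672), and *Fcer1g* to *Ppt2* (0.0999) and *Ptpn18* (0.101). The other genes had looser neighbours. *Fcgr2b* was nearest to *Snx30* (RMS 0.170) and *Trappc4* (0.186), and *Fcgrt* to *Il10rb*, a receptor chain for interleukin-10 (0.138), and *Gm19680* (0.160). *Fcrls* was nearest to *Hps4* (RMS 0.233) and *Clip1* (0.248), and *Fcgr4* to *Cyp27a1*, a sterol hydroxylase (0.251), and *Igfbp4* (0.259). None of these pairs includes another of the 7.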

How the data were processed

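RNA of sorted microglia from 4 mutant and 4 control mice was analysed, 1 library per mouse, grouped by the sample titles. According to the Methods, cells were enriched on a Percoll gradient and sorted, and the authors used Rsubread for alignment (mm10) and featureCounts for reads per gene, and the deposited values are raw counts per gene. The Methods describe polyA-selected paired-end NEBNext libraries and the labels Nextera XT single-end unstranded ones. The Methods also name another deposit for these mutants, and these libraries were taken as that experiment. The authors' table of their own DESeq2 comparison (mean, fold change, statistics) was not used.

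Counts were tested with edgeR 4.0.16 in R 4.3.3 (TMM; a minimum of 10 counts in 4 or more of the 8 libraries; estimateDisp, glmQLFit, glmQLFTest, no block; Benjamini-Hochberg over all 20153 tested genes). The standard error is the log2 fold change over the square root of F. Mice are the replicates, and the biological coefficient of variation of 0.5415 exceeds counting error in genes with many reads. Ratios added 0.5 to each count. Tests were checked on simulated counts. Alternatives were DESeq2 1.42.0, RLE factors, library totals, no filter, a minimum of 10 counts in every library, a replicate block, a ratio pseudocount of 2 and each mouse left out, plus, chosen after seeing the data, autosomal and mitochondrial genes only and leaving out both libraries numbered 1. Coordinates and exonic lengths are those of GENCODE M21 on GRCm38, which matched 55480 of 55573 identifiers. The 7 genes and the gene lists were chosen with earlier results of these data known. Genes named beyond the 7 are all measured immunoglobulin receptors and γ chain partners, the 3 called genes with the largest rise and fall in each cascade list, the 2 nearest profiles, called neighbours and marker genes beside a result; *Lyn*, *Syk*, *Vav1*, *Vav2*, *Ighm* and the uncalled neighbours were named after their values were seen. Of 6 mast cell and basophil genes 4 were tested, of 7 endothelial genes 5 and of 9 neural genes 9, and none was called. Summed neural markers were highest in the libraries numbered 1, at 4288 CPM in control 1 and 3563 CPM in mutant 1. The other controls were at 564 to 1484 CPM and the other mutants at 1093 to 1965 CPM.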

Additional observations from a re-analysis of the deposited data

Results flagged for a closer look

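In 80 groups of 4 libraries over the genes reported, 4 had a library set apart from the other 3 by Dixon's test at its 95% critical value, where chance sets apart about 1 group in 20. *Pag1*, lower in mutants, was at 184.7 CPM in control 3 and at 99.5 to 114 CPM in the other controls. *Dok2*, higher in mutants, was at 50.6 CPM in mutant 1 and at 22.5 to 23.7 CPM in the other mutants, all above the controls. *Ighm* was at 699.8 CPM in control 3 and at 410 to 458 CPM in the other controls. *Fcer1a*, the IgE receptor α chain of mast cells and basophils, was at 3.54 CPM in control 2 and at 0 to 0.307 CPM in the other controls. No library of the 7 Fc receptor and Fc-like genes was set apart in this way.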

How the results depend on the processing

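In each of the 16 alternatives *Fcrls* stayed lower and *Fcgr4* and *Fcgrt* higher (largest adjusted p 0.0082, 0.0457 and 0.0270), and *Fcgr2b*, *Fcgr3* and *Fcer1g* stayed uncalled. *Fcgr1* lost its call without control 4 and without mutant 2, so that leaving out a mouse left 1 to 2 genes called lower (log2 fold changes -0.81 to -0.59). Over all genes 2485 were called, 4751 with DESeq2 and 1567 to 2499 without a mouse. Of the γ chain partners 1 rose instead of 2 with library totals, no filter, the strict filter, the replicate block, without both libraries numbered 1 and in 6 of 8 fits without a mouse (1 to 2). With DESeq2, 2 activating genes rose, and 8 neighbours rose and 3 fell. Neighbours called higher numbered 1 with library totals, 4 with the strict filter, 1 with the block and 0 to 4 without a mouse, and those called lower 2 without both libraries numbered 1 and 1 to 2 without a mouse. Uncalled genes near 0 changed sign. Under the block these were *Fcer1a* (2.0), *Fcrlb* (0.34) and *Pira2* (0.016), and without a mouse the log2 fold changes ran from -1.54 to 2.99 (*Fcer1a*), -0.69 to 0.15 (*Fcrlb*), -0.44 to 0.011 (*Trim21*), -0.24 to 0.89 (*Clec4e*) and -0.33 to 0.17 (*Pira2*). The cause was not tested. Library totals moved the median of all genes by 0.12 on the log2 scale, and no Fc gene changed direction.

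The replicate numbers are shared by both groups, and same-numbered libraries correlated over genes at 0.166, 0.0183, 0.144 and 0.114. Mutants 1, 3 and 4 each correlated best with the control of their own number. Mutant 2 was the exception, at 0.0336 with control 1. The labels do not say what the numbers share, so the libraries were not treated as pairs, and the block is given only as an alternative. With the replicate block 2383 genes were called, and *Syk* passed (-0.66, adjusted p = 0.0376 by edgeR). The paired ratio differences are the same values, and with 4 pairs the smallest exact permutation p is 0.125. Depth did not limit the 7 genes, whose smallest count was 408. Their error reflects the spread between mice.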
